A study of Mus musculus with 71 samples.

Results

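Loss of GLP in the hypothalamus was read from 8 of the 71 arrays of the series, chosen by their titles and compared across every gene with a name in the platform annotation. The 4 mutant arrays carried total RNA from the hypothalamus of Camk2a-Cre; GLPfl/fl mice. The 4 control arrays carried total RNA from the hypothalamus of GLPfl/fl littermates of the same age and sex without Cre in their label, so both groups share the floxed alleles. The mice were 10 to 14 weeks old in the series design and 12 weeks old in the extraction protocol. The whole series covers 4 brain regions with loss of GLP or of its partner G9a, and polyribosome RNA of striatal neurons that is not used here. Each value is an intensity relative to the median of its array, taken as log2, so that 0 is the array median and 1 unit is a doubling. Precision is limited by the number of arrays.

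GLP, the product of Ehmt1, and G9a, the product of Ehmt2, form a complex that places mono- and dimethyl groups on lysine 9 of histone H3. These marks are found over silent genes in euchromatin, and the complex is best known for holding down germ line and early developmental genes in cells that should not use them. The Camk2a promoter drives Cre in forebrain neurons after birth, mostly excitatory ones, so that glia, vessels and many hypothalamic neurons keep intact GLP. The hypothalamus holds many small groups of neurons that are told apart by their neuropeptides and that control feeding, body temperature, stress and reproduction. Because whole tissue was used, fewer cells of a type and less RNA per cell cannot be told apart.

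The tissue matched its label by most of its defining genes. Pmch, the precursor of melanin-concentrating hormone, lay between 8.65 and 8.98 in mutants and between 8.50 and 9.06 in controls, against at most 2.62 in control hippocampus, striatum or cortex. Hcrt, the orexin precursor, lay between 4.06 and 4.50 in mutants and between 3.85 and 4.36 in controls, and the paraventricular transcription factor gene Sim1 lay between 2.35 and 2.84 in mutants and between 2.14 and 3.18 in controls. Nkx2-1, a homeobox gene of the hypothalamic primordium, was below the array median on all 8 arrays, between -2.66 and -2.55, as it was in the other regions. Slc17a7, the vesicular glutamate transporter of cortex and hippocampus, was also below the median on all 8 arrays. Xist was high on all 8 arrays, between 6.35 and 6.63 in mutants and between 6.91 and 7.31 in controls. Its groups did not overlap, with a difference of -0.54, although it did not pass the test (limma, adjusted p = 0.955). That test pools the spread of Xist over all whole-tissue arrays of the fit, so its p-value does not measure the spread within these 8. The cause of the difference was not tested. On all 8 arrays 3 Y-linked genes were below the median.

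Some arrays stood apart by markers of tissue that borders the hypothalamus. The summed intensity of 24 choroid plexus and ependymal genes was 820.5 in mutant 4 and between 80.9 and 99.5 in the other mutants, against 646.5 in control 3 and between 80.0 and 210.9 in the other controls. Ttr, the transthyretin gene of choroid plexus, was at 9.51 in mutant 4 and 9.18 in control 3, with a difference of -0.76 (SE 1.05; adjusted p = 0.859). The summed intensity of 16 pituitary genes was 555.7 in mutant 2, between 128.3 and 186.5 in the other mutants, and between 103.7 and 180.9 in controls. Marker sums of astrocytes ran from 2777 to 3205 in mutants and from 2886 to 3009 in controls. Those of microglia and macrophages ran from 314.7 to 402.6 in mutants and from 275.8 to 451.8 in controls, and those of neurons in general from 1908 to 2082 in mutants and from 1860 to 2147 in controls. The groups overlapped in each of these sums. With mutant 4 and control 3 both left out, a setting chosen after the values were seen, 142 genes passed the test, 89 of them among the 118 described below.

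**Figure D1:**
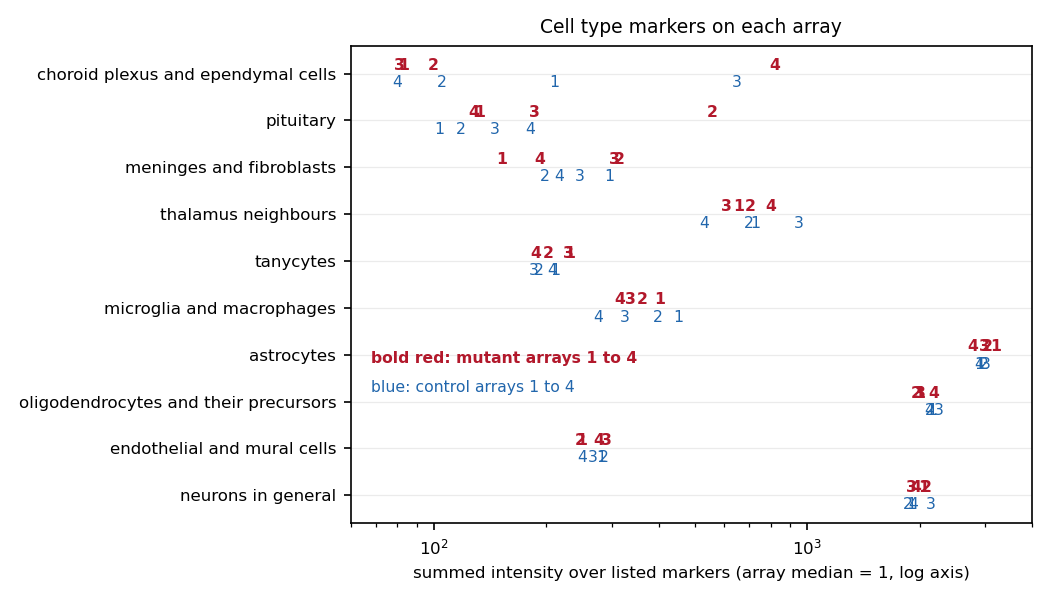
Summed intensity of the listed markers of 10 cell types or neighbouring tissues on each of the 8 hypothalamus arrays, on a log axis where 1 is the array median. Bold red digits are the mutant arrays and blue digits the control arrays, by replicate number. Mutant 4 and control 3 stand out for choroid plexus markers and mutant 2 for pituitary markers, while the other sums overlap between the groups.

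Ehmt1 itself did not pass the test in this tissue. Its single probe set was at 1.64, 1.70, 2.13 and 1.54 in mutants and at 2.01, 1.75, 1.99 and 1.89 in controls, a difference of -0.16 (SE 0.12; limma, adjusted p = 0.713). The groups overlapped, with mutant 3 the highest of all 8 arrays. The same probe set fell on loss of GLP in hippocampus (-0.58, adjusted p = 0.000883), striatum (-0.46, adjusted p = 0.0177) and cortex (-0.76). Its position relative to the deleted exons was not looked up, and in hypothalamus it gives no check of the labels that passes the test. Ehmt2, encoding the partner enzyme, was at 4.42 ± 0.18 in mutants and 4.39 ± 0.06 in controls (SD, n = 4 each), a difference of 0.03 (adjusted p = 0.968).

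Of 11534 genes tested with limma, 118 passed an adjusted p of 0.05, which is 1.02%. They were 96 rises (0.832%) and 22 falls (0.191%) in mutants. Mutant and control arrays did not overlap for 73 of the rises and 17 of the falls, as was so for 336 of all genes tested (2.91%). Rises of at least 1 on the log2 scale numbered 39 and falls of at least that size 7. The median change over all genes tested was -0.0015. The control mean lay below the array median for 27 of the rises, and their folds, taken against the median itself, are minimum values written as "at least". Only 17 tested genes lay below the median in every control, and 15 of them rose, a share that follows from the filter, since such a gene was tested only where its mutants were high. The test pools the spread of each gene over 59 arrays. With the 8 hypothalamus arrays alone in the fit, 39 genes passed, 36 of them among the 118, and the 16 leading rises below kept their call there and in every other setting in which they were tested.

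Promoters are printed for 5 called genes, because CpG content is a property of promoters that bears on chromatin silencing and that differs widely among them: Myh1, Gsta2 and Dach2, which rose, and Slc5a5 and Sycp3, which fell. Each runs from 250 bases before to 50 after the gene's start in the RefSeq annotation of GRCm38.p6, on the strand of the gene, with CpG dinucleotides in capitals. They lie at chr11:67199852-67200151 (plus strand) for Myh1, chr9:78347096-78347395 (minus) for Gsta2, chrX:113297260-113297559 (plus) for Dach2, chr8:70892708-70893007 (minus) for Slc5a5 and chr10:88459337-88459636 (plus) for Sycp3. For Dach2 the table lists 2 windows and the first is shown.
Myh1: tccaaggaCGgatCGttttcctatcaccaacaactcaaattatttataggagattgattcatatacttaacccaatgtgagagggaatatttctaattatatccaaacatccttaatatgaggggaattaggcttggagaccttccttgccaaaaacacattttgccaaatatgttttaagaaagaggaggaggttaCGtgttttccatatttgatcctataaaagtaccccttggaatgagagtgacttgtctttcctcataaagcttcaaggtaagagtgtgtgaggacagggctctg
Gsta2: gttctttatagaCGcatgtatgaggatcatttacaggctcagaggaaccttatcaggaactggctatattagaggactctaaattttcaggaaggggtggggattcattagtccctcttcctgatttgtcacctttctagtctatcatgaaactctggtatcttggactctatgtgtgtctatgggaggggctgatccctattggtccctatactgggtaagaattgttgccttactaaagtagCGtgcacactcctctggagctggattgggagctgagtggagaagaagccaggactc
Dach2: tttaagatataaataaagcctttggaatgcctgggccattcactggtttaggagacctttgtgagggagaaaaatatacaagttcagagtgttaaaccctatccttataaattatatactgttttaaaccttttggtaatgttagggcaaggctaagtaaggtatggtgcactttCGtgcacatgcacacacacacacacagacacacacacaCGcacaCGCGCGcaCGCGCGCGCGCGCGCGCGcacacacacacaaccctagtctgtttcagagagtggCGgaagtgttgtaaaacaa
Slc5a5: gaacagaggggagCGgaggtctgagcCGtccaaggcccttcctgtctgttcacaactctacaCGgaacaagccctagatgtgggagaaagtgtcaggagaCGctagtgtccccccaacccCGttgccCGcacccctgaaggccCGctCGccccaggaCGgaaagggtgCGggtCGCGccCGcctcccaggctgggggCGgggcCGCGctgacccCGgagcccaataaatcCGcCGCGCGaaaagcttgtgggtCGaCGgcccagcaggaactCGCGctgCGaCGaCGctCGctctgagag
Sycp3: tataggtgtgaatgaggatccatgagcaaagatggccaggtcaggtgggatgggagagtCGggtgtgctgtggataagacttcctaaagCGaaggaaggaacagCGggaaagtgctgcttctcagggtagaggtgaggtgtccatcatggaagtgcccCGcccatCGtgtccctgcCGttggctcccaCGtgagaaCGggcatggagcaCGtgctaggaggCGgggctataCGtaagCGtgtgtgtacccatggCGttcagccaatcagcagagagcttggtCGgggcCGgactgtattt
CpG dinucleotides numbered 3 in the Myh1 window, 2 in that of Gsta2, 15 in that of Dach2, 29 in that of Slc5a5 and 15 in that of Sycp3. Over the 9348 of 11534 tested genes with a window the median was 21, with quartiles of 13 and 29. The 19 of 22 falls with a window had a median of 19. For the rises this comparison is void, since only 75 of 96, or 78.1%, had a window. The letters CACGTG, a palindrome read alike on both strands, stand in the Sycp3 window and in 3 of the 19 fall windows (15.8%), against 964 windows of all tested genes (10.3%).

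The leading rises are given by role, beginning with muscle genes. Myh1, the myosin heavy chain of fast skeletal muscle, was at 2.91, 2.27, 1.87 and 1.94 in mutants and at -2.51, -2.31, -2.27 and -1.29 in controls. Every mutant was well above the array median and every control well below it, and Myh1 was at least 4.75-fold higher in mutants (adjusted p = 2.59e-08). Its probe set is of a kind that can match other myosins, and the other Myh1 probe sets moved by 3.74 and, below the median in both groups, by -0.18. Myom2, a myomesin that ties thick filaments together at the M band, averaged 2.38 ± 0.42 in mutants and -1.55 ± 0.63 in controls (SD, n = 4 each), at least 5.19-fold higher (adjusted p = 2.00e-10). Its probe set can likewise match other transcripts. The other Myom2 probe sets moved by 2.92 and, below the median in both groups, by 0.47 and -0.12. Ttn, the giant spring protein titin, was at 2.22, 2.79, 2.61 and 2.65 in mutants and at -0.76, -0.59, 0.36 and -0.10 in controls, at least 5.93-fold higher (adjusted p = 1.31e-06). The lowest mutant of Ttn exceeded the highest control by a wide margin. A second Ttn probe set moved by 1.24, and the rest, below the median in both groups, by -0.14 to -0.03. Tnnt2, the troponin T of heart muscle, was at 4.24, 3.74, 4.14 and 4.07 in mutants and, already above the median, at 2.02, 2.19, 1.64 and 2.44 in controls. That is a 3.93-fold rise (adjusted p = 1.08e-07), and a second Tnnt2 probe set moved by 1.84. Pgam2, the muscle form of phosphoglycerate mutase, was at least 1.83-fold higher (adjusted p = 2.18e-07).

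Most of the muscle list was too dim to test. Of 49 listed sarcomere and muscle genes, 25 were below the array median on all 8 arrays and 17 were tested. Among the 17, 7 rose, against 0.832% of all genes tested, and 0 fell. Beside the 5 above these were Myh7, the slow and cardiac myosin heavy chain, with 5.58 ± 0.50 in mutants and 4.52 ± 0.33 in controls (adjusted p = 0.00382), and Myh8, the perinatal form, with 0.87 ± 0.53 in mutants and -0.49 ± 0.37 in controls (adjusted p = 0.00589; SD, n = 4 each). The median change of the 17 was 0.25. Among the 11 whose control mean was above the array median, which the filter does not select for rises, 2 rose (Tnnt2 and Myh7) and the median change was 0.09. Of all 11383 tested genes with such a control mean 69 rose and 22 fell. Among members that did not pass, Tnnc1, cardiac troponin C, changed by -0.52 (adjusted p = 0.632), Acta1, skeletal actin, by -0.22 (adjusted p = 0.711) and Casq1, a calcium store protein, by 0.25 (adjusted p = 0.607). The calls of Myh7 and Myh8 were lost with only the 8 hypothalamus arrays in the fit, and that of Myh8 also without mutant 2 (adjusted p = 0.0501).

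**Figure D2:**
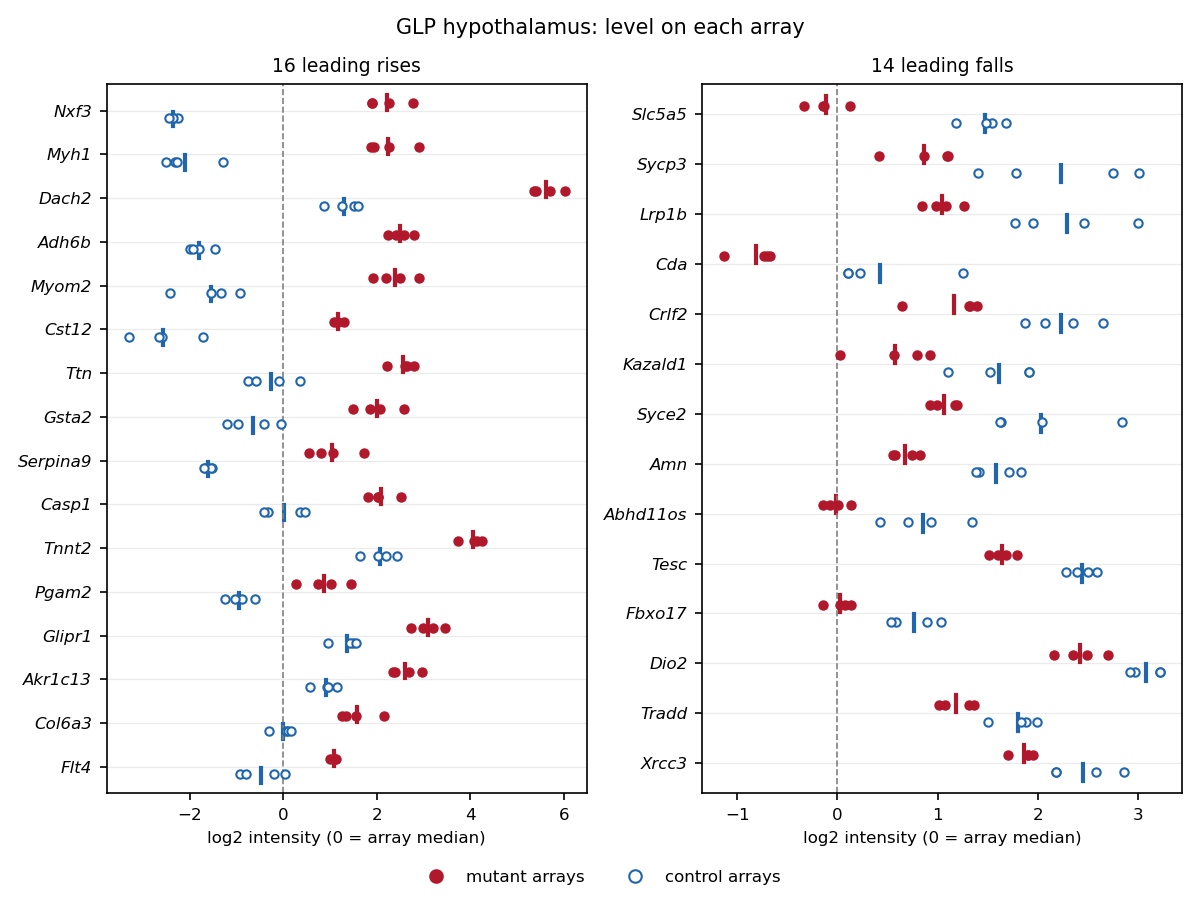
Level of the 16 leading rises and 14 leading falls on each array, as log2 intensity with the array median at 0 (dashed line). Filled red points are the 4 mutant arrays, open blue points the 4 control arrays, and vertical ticks the group means. For each gene shown the mutant and control points do not overlap, and the controls of Nxf3, Myh1, Adh6b, Myom2, Cst12, Gsta2, Serpina9 and Pgam2 all lie below the array median.

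Genes of nuclear export, the germ line and early development formed a small set. Nxf3, a member of the family of messenger RNA export factors that is chiefly expressed in testis, was at 2.78, 1.90, 2.26 and 1.90 in mutants and at -2.35, -2.26, -2.37 and -2.45 in controls. It showed the largest log2 difference of any called gene, 4.57 (SE 0.25), and was at least 4.63-fold higher (adjusted p = 2.59e-20). As the Nxf3 controls were all below the median, that difference is not a measured fold. Dach2, a dachshund-family cofactor of transcription that acts in eye, muscle and limb development, was at 6.02, 5.70, 5.40 and 5.36 in mutants and at 0.87, 1.51, 1.26 and 1.59 in controls. As both groups were above the median, its 19.9-fold rise is measured on both sides (difference 4.31, SE 0.22; adjusted p = 1.86e-21), and its second probe set moved by 4.71. Dppa5a, an RNA-binding protein of pluripotent cells, was 1.68-fold higher (adjusted p = 0.00863), although mutant 2 at 1.68 was close to control 2 at 1.59. Without control 1 its adjusted p was 0.0820.

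The germ cell list moved in both directions. Of 43 listed germ cell and meiotic genes 27 were below the median on all 8 arrays and 6 were tested, of which Nxf3 and Dppa5a rose and Sycp3 and Syce2 fell (median change -0.16). Nxf3 was tested only through its mutants, and of the 5 members with a control mean above the median 1 rose and 2 fell. Of all 11383 tested genes with such a control mean 69 rose and 22 fell. Sycp3, a structural protein of the synaptonemal complex that pairs meiotic chromosomes, was at 1.09, 0.42, 1.10 and 0.86 in mutants and at 1.78, 3.01, 2.75 and 1.40 in controls, a 2.58-fold fall (adjusted p = 0.00208). Controls 2 and 3 stood well above controls 1 and 4, and all of them above the mutants. Syce2, from the central element of the same complex, was 1.95-fold lower in mutants (adjusted p = 0.0130). Both calls were lost with only the 8 hypothalamus arrays in the fit, and that of Syce2 also without mutant 2 or control 2 (adjusted p 0.0632 to 0.237). Of 30 early neural progenitor genes 17 were tested and Dach2 alone passed (median change 0.03).

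Enzymes of alcohol, drug and steroid metabolism were a further set of rises. Adh6b, an alcohol dehydrogenase, was at 2.80, 2.42, 2.57 and 2.23 in mutants and at -2.0, -1.81, -1.47 and -1.93 in controls, at least 5.67-fold higher (adjusted p = 1.61e-21), the smallest adjusted p of the comparison. Gsta2, a glutathione S-transferase, averaged 1.99 ± 0.46 in mutants and -0.66 ± 0.52 in controls and was at least 3.98-fold higher (adjusted p = 5.26e-06). Akr1c13, an aldo-keto reductase outside the lists that was reached by the size of its change, was at 2.96, 2.39, 2.69 and 2.34 in mutants and at 0.94, 1.15, 0.57 and 0.95 in controls, 3.24-fold higher (adjusted p = 1.45e-07). All 4 mutants exceeded all 4 controls by more than the range of either group. Of 47 listed genes of this metabolism 26 were tested, and 4 rose: Adh6b, Gsta2, Gstm7 (1.75-fold, adjusted p = 0.000935), a second glutathione transferase, and Ces5a (1.79-fold, adjusted p = 2.68e-06), a carboxylesterase. Among the 22 members whose control mean was above the array median, 2 rose (Gstm7 and Ces5a) and the median change was 0.01, since Adh6b and Gsta2 were tested only through their high mutants. Of all 11383 tested genes with such a control mean 69 rose. The list's median change was 0.08, and its summed intensity ran from 814.6 to 899.8 in mutants and from 785.7 to 928.9 in controls.

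Secreted inhibitors, cystatins, defensins and related secreted proteins held 6 rises among 16 tested of 37 listed genes, with a median change of 0.64. Of all genes tested 0.832% rose. Cst12, a cystatin of the reproductive tract, was at 1.15, 1.16, 1.30 and 1.09 in mutants and at -2.59, -3.31, -2.67 and -1.71 in controls, at least 2.26-fold higher (adjusted p = 1.92e-12). The mutants lay within a narrow range just above the median while the controls spread widely below it. Serpina9, a serpin known from human germinal centre B cells, was at 1.72, 0.54, 0.80 and 1.06 in mutants and between -1.69 and -1.53 in controls, at least 2.05-fold higher (adjusted p = 2.89e-13). Olfm4, a secreted olfactomedin glycoprotein, rose 2.81-fold (adjusted p = 1.82e-05) and Serpinb1b, an inhibitor of neutrophil proteases, 2.46-fold (adjusted p = 0.00106). Tfpi, an inhibitor of the tissue factor pathway, rose 1.72-fold (adjusted p = 0.0162) and Serping1, the C1 inhibitor of complement, 1.88-fold (adjusted p = 0.0489), but in both the groups overlapped. The call of Tfpi was lost without mutant 1, 2 or 3 or control 3 (adjusted p 0.0626 to 0.132). That of Serping1 was lost without mutant 2 or 3 or control 2 or 3 (adjusted p 0.149 to 0.301). Among the 14 members whose control mean was above the median, 4 rose and the median change was 0.25. Of all 11383 tested genes with such a control mean 69 rose.

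Other leading rises came from immune, matrix and vascular genes. Casp1, the protease that matures interleukin 1 beta, was at 2.51, 2.02, 2.02 and 1.81 in mutants and at 0.35, -0.32, -0.41 and 0.46 in controls, 4.20-fold higher (adjusted p = 5.61e-06). It was the 1 member of 7 tested inflammasome and caspase genes that passed (median change -0.02). Glipr1, a secreted protein of the CAP family, rose 3.32-fold (adjusted p = 4.17e-06), although a second probe set near the median moved by 0.06. Col6a3, a chain of the matrix collagen VI, was at 1.33, 1.56, 2.15 and 1.26 in mutants and at 0.06, 0.09, -0.31 and 0.17 in controls, 2.98-fold higher (adjusted p = 0.000565). Summed meningeal and fibroblast markers ran from 152.3 to 313.7 in mutants and from 199.1 to 294.9 in controls, and their part in this rise was not tested. Flt4, the VEGF-C receptor of lymphatic endothelium, was between 1.00 and 1.13 in mutants and between -0.92 and 0.03 in controls, at least 2.11-fold higher (adjusted p = 3.19e-06). The second Flt4 probe set was below the median in both groups. Ifitm2, an interferon-induced membrane protein, was the 1 rise among 19 tested interferon and antigen processing genes (at least 1.52-fold, adjusted p = 0.000193; list median -0.05). Its controls all lay below the median, and 0 of the 18 members with a control mean above it passed in limma.

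The falls were led by a transporter. Their median change was -0.76, beside 0.84 for the rises. Slc5a5, the sodium iodide symporter best known from thyroid, was at 0.13, -0.33, -0.14 and -0.13 in mutants and at 1.54, 1.68, 1.48 and 1.18 in controls, at least 2.77-fold lower (adjusted p = 2.18e-07). All mutants were near the array median and all controls above 1. Crlf2, a chain of the receptor for the cytokine TSLP, was at 1.17 ± 0.35 in mutants and 2.24 ± 0.34 in controls (SD, n = 4 each), 2.10-fold lower (adjusted p = 5.26e-06). Tesc, a calcium-binding protein of the EF-hand kind, was at 1.68, 1.79, 1.6 and 1.51 in mutants and at 2.59, 2.50, 2.28 and 2.39 in controls, 1.73-fold lower (adjusted p = 1.96e-05). The lowest control of Tesc exceeded the highest mutant by more than either group's own range. A second Tesc probe set, below the median in both groups, moved by -0.1, and the call was lost with the mean of all probe sets. Amn, a membrane protein of the vitamin B12 uptake receptor, was 1.87-fold lower (adjusted p = 0.0484), a call lost without mutant 2, 3 or 4 or control 1 or 2 (adjusted p 0.111 to 0.208).

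Receptors, enzymes and repair genes made up the other falls. Lrp1b, a giant receptor of the LDL receptor family, was at 1.08, 0.98, 0.84 and 1.26 in mutants and at 3.00, 1.95, 1.77 and 2.46 in controls, 2.39-fold lower (adjusted p = 0.0418). Cda, cytidine deaminase, was at least 1.34-fold lower (adjusted p = 0.00959), with its mutants between -1.13 and -0.67 and its controls between 0.11 and 1.25. Dio2, the deiodinase that activates thyroid hormone and that tanycytes express in this tissue, was at 2.49, 2.35, 2.16 and 2.70 in mutants and at 2.97, 3.22, 3.22 and 2.92 in controls, 1.58-fold lower (adjusted p = 0.0282). The gap between the groups of Dio2 was narrow, 2.70 in the highest mutant against 2.92 in the lowest control, and the call was lost without mutant 2 or 3 or control 2 or 3 (adjusted p 0.0691 to 0.196). Kazald1, a secreted insulin-like growth factor binding relative, was 2.05-fold lower (adjusted p = 0.000446) and Fbxo17, an F-box protein, 1.66-fold lower (adjusted p = 0.00382). Abhd11os, an RNA transcribed opposite Abhd11, was at least 1.80-fold lower (adjusted p = 0.0372). Tradd, an adaptor of the TNF receptor, was 1.53-fold lower (adjusted p = 0.0335) and Xrcc3, of homologous DNA repair, 1.50-fold lower (adjusted p = 0.00991). Single arrays also decided several of these calls. That of Lrp1b was lost without mutant 1, 2 or 3 or control 1 or 4 (adjusted p 0.0542 to 0.303), and that of Cda without mutant 2 or control 2 (0.0646 to 0.148). Abhd11os was lost without mutant 2, 3 or 4 or control 1 or 2 (0.0659 to 0.323), Tradd without any 1 of mutants 1 to 3 or controls 1 to 3 (0.0537 to 0.181), and Xrcc3 without mutant 2 or control 1 or 2 (0.0593 to 0.158). Of the 14 falls, 11 lost their call with only the 8 hypothalamus arrays in the fit, all but Slc5a5, Tesc and Amn.

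Of the neuropeptide genes that define hypothalamic neurons, 1 passed the test. Of 32 listed, 26 had a probe set, 3 of them below the median on every array, and 20 were tested, with a median change of 0.08. Npy, the appetite-raising neuropeptide Y, fell: it was at 1.78, 1.89, 1.32 and 1.52 in mutants and at 1.92, 3.05, 1.80 and 2.65 in controls, 1.65-fold lower (adjusted p = 0.0151). The groups of Npy overlapped, since mutant 2 at 1.89 exceeded control 3 at 1.80, and the call was lost without mutant 3 or control 2 or 4 (adjusted p 0.0641 to 0.303). Pomc, the precursor of melanocortins and beta-endorphin, was at 4.46, 6.23, 6.99 and 3.91 in mutants and at 3.60, 3.70, 1.17 and 3.99 in controls. Its difference of 2.28 (SE 0.63) did not pass (adjusted p = 0.0610). Control 3 was far below the other controls, and mutant 2 was also the array with the highest sum of pituitary markers, whose corticotrophs and melanotrophs use Pomc. The part of pituitary tissue in this difference was not tested. Pomc did pass under 6 alternatives, at an adjusted p between 0.00631 and 0.0305, and over all 21 alternatives its adjusted p ran up to 0.518.

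Peptides of the lateral and paraventricular hypothalamus did not pass. Pmch changed by 0.0002 (SE 0.38; adjusted p = 1), Hcrt by 0.20 (SE 0.17; adjusted p = 0.746), Oxt, oxytocin, by 0.11 (SE 0.30; adjusted p = 0.939) and Avp, vasopressin, by -0.11 (SE 0.30; adjusted p = 0.939). Trh, thyrotropin-releasing hormone, was at 3.11, 2.70, 2.92 and 2.32 in mutants and at 2.23, 2.24, 2.18 and 1.88 in controls, groups that did not overlap, yet its difference of 0.63 (SE 0.27) did not pass (adjusted p = 0.411). Crh, corticotropin-releasing hormone, changed by 0.26 (SE 0.29), Sst, somatostatin, by -0.05 (SE 0.17), Gal, galanin, by -0.20 (SE 0.20) and Cartpt, another satiety peptide, by -0.27 (SE 0.29), each with an adjusted p of at least 0.791.

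**Figure D3:**
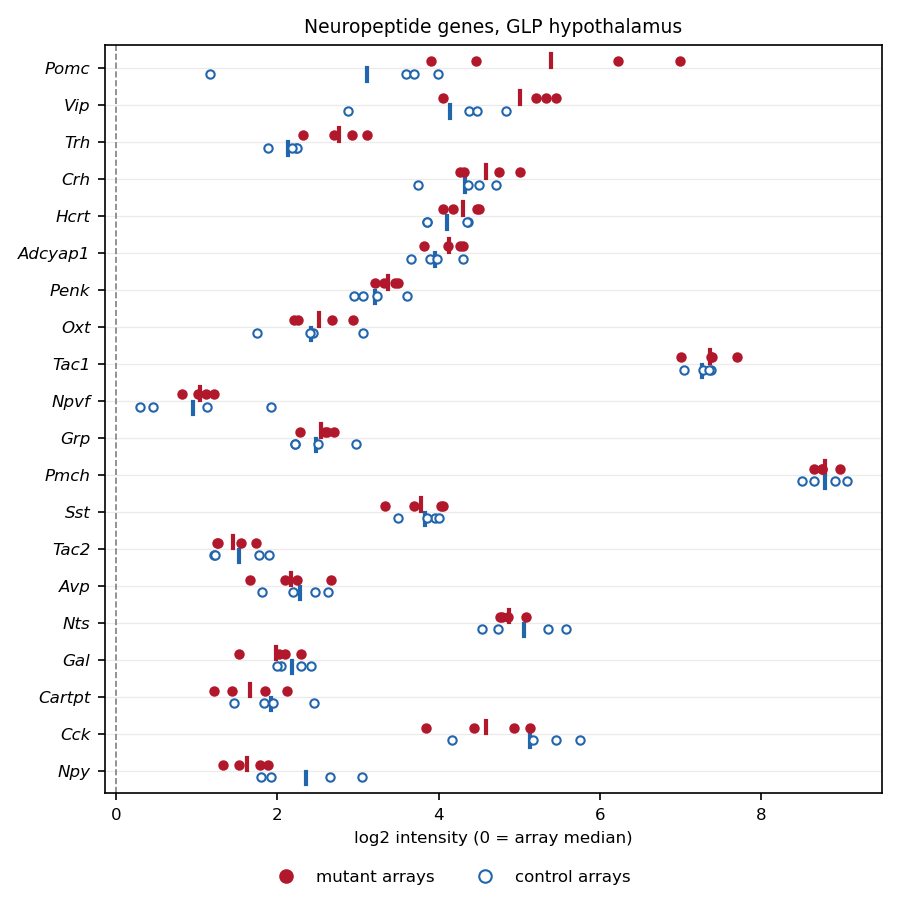
Level of the 20 tested neuropeptide genes on each array, as log2 intensity with the array median at 0, ordered by the difference between the groups. Filled red points are the 4 mutant arrays, open blue points the 4 control arrays, and ticks the group means. Pomc, at the top, spreads from 3.91 to 6.99 in mutants and from 1.17 to 3.99 in controls, Npy, at the bottom, is the 1 gene that passed the test, and levels of different genes are not comparable.

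Other lists of hypothalamic function held no call in limma. Over all genes tested, 1083 (9.39%) had an unadjusted p under 0.05, the share against which the counts at that level here and in the lists that follow are to be read. Hypothalamic transcription factors (15 tested, 2 at an unadjusted p under 0.05, median change 0.07), receptors of feeding, reproduction and stress (26 tested, 3 at that level, median 0.10) and appetite hormone signalling (20 tested, 3 at that level, Pomc among its members, median 0.07) had 0 genes past the adjusted threshold. The same held for clock genes (15 tested, 0 at an unadjusted p under 0.05, median 0.10) and monoamine synthesis and transport (12 tested, 2 at that level, median 0.20). Among single members, the paraventricular factor gene Otp changed by 0.59 (SE 0.22; adjusted p = 0.271), the dopamine enzyme gene Th by 0.68 (SE 0.48; adjusted p = 0.701) and the histamine enzyme gene Hdc by 0.02 (SE 0.21; adjusted p = 0.991). Lepr, the leptin receptor, was near the array median, between -0.93 and 0.23 in mutants and between -0.95 and 0.05 in controls, and was not tested. In GABA and glutamate transmission 1 of 26 genes rose, Grin2b, an NMDA receptor subunit (1.49-fold, adjusted p = 0.0310; list median 0.03), with 3 further probe sets moving by -0.25 to -0.02. Its call was lost without mutant 2, 3 or 4 or control 1, 2 or 4 (adjusted p 0.0537 to 0.170).

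Lists of imprinting, chromatin and adhesion held 1 call between them. Imprinted genes held 1 rise of 25 tested (median 0.13): Magel2, a gene of the Prader-Willi interval that is strongly expressed in hypothalamus, was at 4.51, 4.83, 5.54 and 4.70 in mutants and at 3.40, 3.42, 3.88 and 4.88 in controls, 2.00-fold higher (adjusted p = 0.0207). Control 4 lay within the mutants, and the call was lost without mutant 2 or 3 or control 1 or 2 (adjusted p 0.0537 to 0.251). The H3K9 methylation machinery (31 tested, 3 at an unadjusted p under 0.05, median 0.06), E2F6 and polycomb partners (19 tested, 1 at that level, median 0.02) and protocadherins and cadherins (24 tested, 5 at that level, median 0.09) held 0 calls in limma. So did the neighbours of Camk2a on its chromosome (11 tested, 3 at that level, median 0.11), liver and plasma protein genes (6 tested, 0 at that level, median -0.25), immediate early genes (18 tested, 1 at that level, median 0.02) and lymphocyte genes (4 tested, 1 at that level, median 0.03).

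Cell type markers held 3 calls in all. Dio2 fell among 12 tested tanycyte genes (median 0.02). F13a1, a coagulation factor subunit of border macrophages, rose 2.11-fold among 16 tested microglia and macrophage genes (adjusted p = 0.00589; median -0.06), and Wfs1, an endoplasmic reticulum protein that also marks hippocampal pyramidal neurons, rose 1.57-fold among 12 tested genes of cortical and hippocampal excitatory neurons (adjusted p = 0.0336; median -0.02). The call of F13a1 was lost without control 2 (adjusted p = 0.0633), and that of Wfs1 without mutant 2 or 3 or control 1 or 2 (adjusted p 0.194 to 0.375). Astrocyte (18 tested, 1 at an unadjusted p under 0.05, median 0.04), oligodendrocyte (19 tested, 1 at that level, median -0.04), endothelial and mural (15 tested, 4 at that level, median 0.02) and meningeal genes (14 tested, 2 at that level, median 0.04) held 0 calls in limma. The same was found for choroid plexus (14 tested, 1 at that level, median -0.14), pituitary (5 tested, 1 at that level, median 0.30), thalamic (14 tested, 1 at that level, median -0.21), striatal (15 tested, 3 at that level, median 0.16) and general neuronal genes (15 tested, 3 at that level, median 0.003).

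The question of which changes differed between regions was addressed by testing the change in hypothalamus against the mean change in hippocampus, striatum and cortex of GLP mutants. Of 12418 genes tested 29 passed (0.234%), 13 with a more positive change in hypothalamus (0.105%) and 16 with a less positive one (0.129%). Adh6b led the first group. It changed by 4.30 in hypothalamus and by 0.31, 0.37 and -0.01 in hippocampus, striatum and cortex, a difference of 4.08 (SE 0.24; adjusted p = 5.48e-18). The filter of this test is met by 4 arrays above the median, which the high hypothalamus mutants of Adh6b alone provide. Its hypothalamus controls were all below the median. In each of the other regions Adh6b was too dim to be tested alone, so its changes there are not measured folds. Serpina9 changed by 2.64 in hypothalamus and by 0.30 to 0.35 in the other regions, a difference of 2.32 (SE 0.25; adjusted p = 9.08e-09). Its hypothalamus controls were also all below the median, and in hippocampus it was too dim to be tested alone. Nxf3 differed by 2.09 (SE 0.28; adjusted p = 4.10e-06), but not evenly, since it changed by 4.66 in striatum, 2.25 in cortex and 0.54 in hippocampus. Nxf3 was too dim to be tested alone in cortex and hippocampus, and its hypothalamus controls were all below the median. Its changes in those regions are not measured folds.

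Smaller differences of the same direction were found in signalling and myeloid genes. Ngef, a neuronal guanine nucleotide exchange factor, was at 3.95 ± 0.23 in mutants and 3.39 ± 0.12 in controls of the hypothalamus, with changes of -0.16 to 0.02 elsewhere and a difference of 0.64 (SE 0.09; adjusted p = 3.14e-05). Adgre1, the macrophage receptor F4/80, was at 2.91, 2.67, 2.45 and 2.48 in mutants and at 1.57, 1.72, 1.68 and 1.6 in controls, 1.98-fold higher (adjusted p = 9.27e-08). Its difference from the other regions was 0.88 (SE 0.14; adjusted p = 8.42e-05). Adgre1 is not on the list of microglia and macrophage markers, whose sums are given above and of which F13a1 alone passed. Flt4 differed by 1.41 (SE 0.25; adjusted p = 0.000942), with changes of 0.04 to 0.29 in the other regions.

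In the opposite direction the change in hypothalamus was less positive than the mean of the other regions, though not than every one of them. Afp, the fetal plasma protein alpha-fetoprotein, was below the array median on all 8 hypothalamus arrays, between -2.67 and -0.79 in mutants and between -3.10 and -1.94 in controls, and was not tested there. Its change was 6.34 in striatum and 3.30 in cortex but 0.48 in hippocampus, beside 0.32 in hypothalamus, and the regional difference was -3.05 (SE 0.36; adjusted p = 1.65e-07). In hippocampus Afp was likewise too dim to be tested alone. Zranb3, an annealing helicase of stalled replication forks, changed by 0.51 in hypothalamus (adjusted p = 0.0766) and by 0.65, 2.29 and 2.82 in hippocampus, striatum and cortex, a difference of -1.41 (SE 0.17; adjusted p = 1.65e-07). Mettl24, a predicted methyltransferase, stayed between -2.14 and -1.56 on all 8 arrays while it changed by 3.45 in hippocampus, 1.05 in striatum and 2.23 in cortex, a difference of -2.29 (SE 0.33; adjusted p = 1.95e-05). In hypothalamus and striatum Mettl24 was too dim to be tested alone. Gpr50, an orphan relative of the melatonin receptors that tanycytes express, was already above the median here, at 2.68 ± 0.63 in mutants and 2.07 ± 0.54 in controls, and changed by 0.62 against 3.70 in hippocampus, 3.74 in cortex and 0.30 in striatum (difference -1.96, SE 0.40; adjusted p = 0.00756). In striatum Gpr50 was too dim to be tested alone. Dach2 rose in all 4 regions, by 4.31 in hypothalamus and by 5.42, 5.99 and 6.21 elsewhere, a difference of -1.56 (SE 0.25; adjusted p = 0.000140). The 8 genes of smallest p in this test (Adh6b, Serpina9, Afp, Zranb3, Nxf3, Mettl24, Ngef and Adgre1) kept their call in every alternative in which they were tested.

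**Figure D4:**
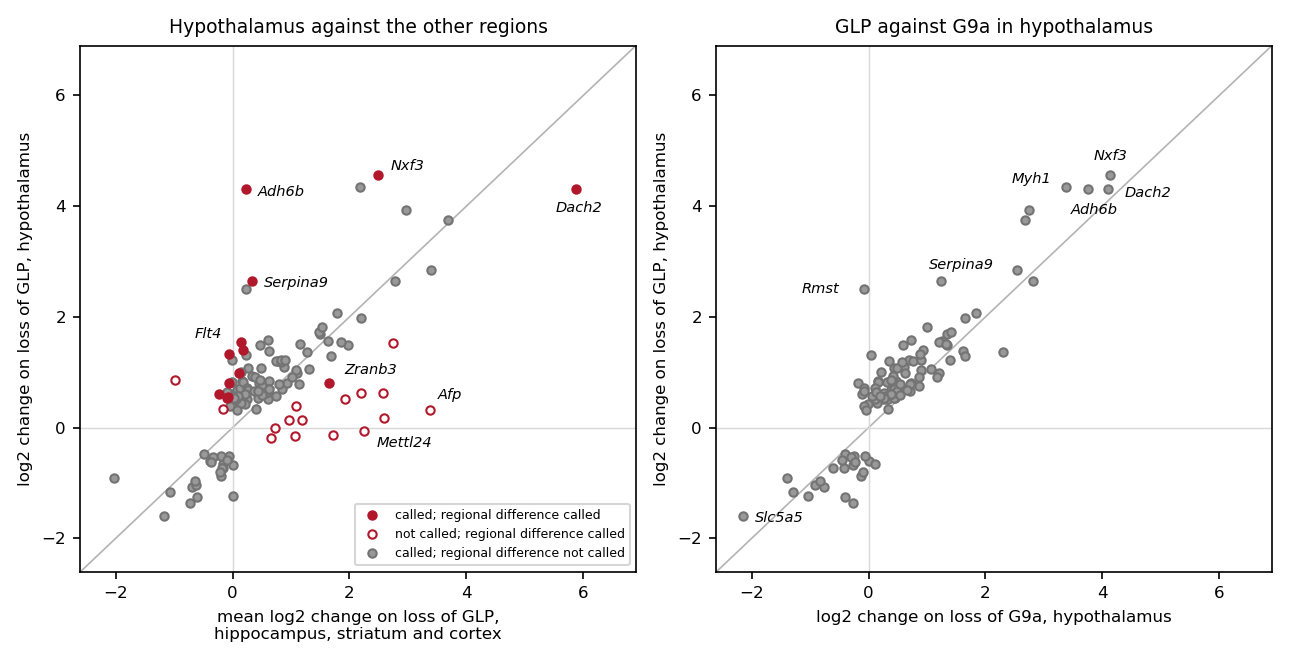
Log2 change in GLP mutant hypothalamus (vertical) against the mean change in the other 3 regions of GLP mutants (left) and against the change in G9a mutant hypothalamus (right), for genes called in hypothalamus and, on the left, also for those that passed the test of the regional difference; the grey line marks equal changes. Red marks passed that test, filled where the gene was also called in hypothalamus. Adh6b and Serpina9 lie high above the line on the left, where Afp, Zranb3 and Mettl24 lie below it. On the right Adh6b lies close to the line.

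The same question for the partner enzyme was asked by testing the change on loss of GLP against that on loss of G9a in hypothalamus, with separate controls. Of 12040 genes tested 1 passed (0.00831%), Ehmt2 itself, which changed by 0.03 on loss of GLP and by -1.02 on loss of G9a, a difference of 1.05 (adjusted p = 0.0185). That call was lost in 4 of 27 alternatives. At an unadjusted p under 0.05 there were 1026 genes. Adh6b changed by 4.30 and 3.75, Nxf3 by 4.57 and 4.13, Dach2 by 4.31 and 4.09 and Flt4 by 1.55 and 1.28 on loss of GLP and of G9a. Serpina9 changed by 2.64 and 1.25 (difference 1.40, adjusted p = 0.0663) and Clcn5, a chloride and proton exchanger of endosomes, by 0.81 and -0.19 (difference 0.99, adjusted p = 0.0663), and neither passed. Nor did the rest of the 8 genes of smallest p in this limma test. The difference was negative for Abhd8 (-0.77, adjusted p = 0.0637), Mfsd12 (-0.72, 0.0663), Spry2 (-0.72, 0.0721) and Pogk (-0.67, 0.1051). For Cltc it was 0.58 (adjusted p = 0.1355). Abhd8 passed in 12 of 27 alternatives and Clcn5 in 8. A test that 1 gene passes does not show that the others changed alike, and with array weights 135 genes passed.

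Called genes were shared with other comparisons to differing degrees. The arrays of the comparisons are separate, although the labels do not say if an animal gave more than 1 region. The spread of each gene is pooled over the same 59 arrays in every comparison, so the calls are not independent of each other. Of the 96 rises, 32 also rose in GLP hippocampus, 33.3% of the hypothalamic rises and 15.5% of the 206 there (1.76% of genes tested there rose). In GLP striatum 28 did, 29.2% and 20.9% of 134 (1.16%), and in GLP cortex 43, 44.8% and 28.1% of 153 (1.32%). In G9a hypothalamus 36 did, 37.5% and 19.3% of 187 (1.59%). In G9a hippocampus 38 did, 39.6% and 14.2% of 268 (2.28%), in G9a striatum 26, 27.1% and 12% of 217 (1.88%), and in G9a cortex 24, 25% and 32.4% of 74 (0.634%). Of the 22 falls, 5 fell in GLP hippocampus (0.317% of genes tested there), 7 in GLP striatum (0.511%), 5 in GLP cortex (0.224%) and 9 in G9a hypothalamus (0.741%). In G9a hippocampus 4 fell (0.477%), in G9a striatum 5 (1.15%) and in G9a cortex 2 (0.103%). G9a cortex had only 2 mutant and 2 control arrays, and G9a hippocampus had fewer control than mutant arrays. Rises and falls called there rest on fewer arrays, so their counts and shares are not directly comparable with the rest. In G9a striatum 1 called gene was called the other way: Gcnt2, an enzyme of blood group I antigen branching named after its values were seen, changed by 0.48 here and by -0.41 there (adjusted p = 0.0469).

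**Figure D5:**
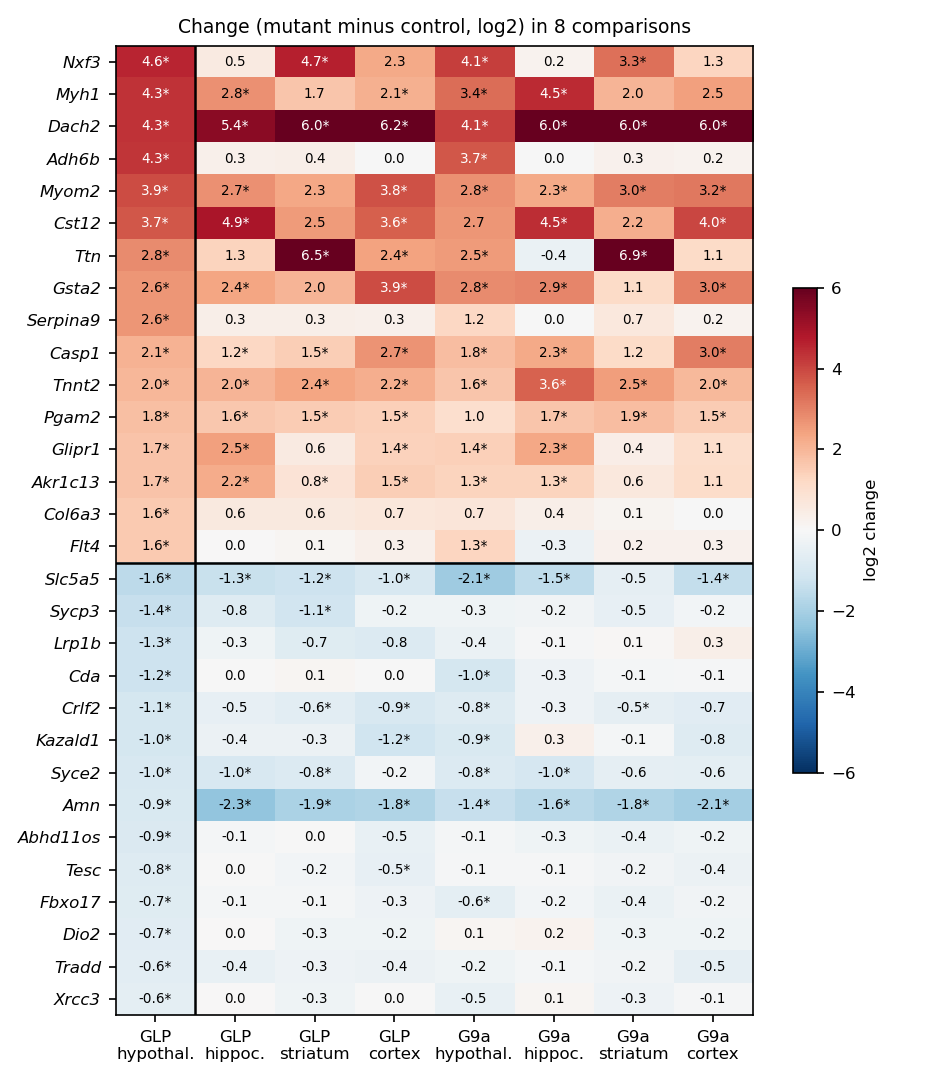
Log2 change (mutant minus control) of the 16 leading rises and 14 leading falls in the GLP hypothalamus, left of the vertical line, and in the 7 other whole-tissue comparisons, with an asterisk where the adjusted p was under 0.05. A value without an asterisk either did not pass or was too dim to be tested there, such as Cst12 in GLP striatum at 2.5. Colour runs from blue (lower in mutants) to red (higher in mutants). Dach2, Tnnt2 and Amn carry an asterisk in all 8 columns, Adh6b only in the hypothalamus of both mutants, as it was not tested in the other regions.

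Counted over the 7 other whole-tissue comparisons, 7 rises were called the same way in all of them: Dach2, Tnnt2, Olfm4, Serpinb1b, Ifitm2, Gstm7 and Ces5a. Amn was the 1 fall called in all 7, and Slc5a5 was called in 6. The 7 comparisons were not of equal power, since G9a cortex and G9a hippocampus had fewer arrays. At the other end, 36 rises and 8 falls were called in no other comparison. Some could not be called, since between 72 and 87 of the 96 rises were tested in each of the 7. Plcz1, a phospholipase C among these 36 rises, was tested in none of them and changed by 0.06 to 2.03. Among those 36 the regional difference passed for 5, and among the 8 falls for 0, so for the others the hypothalamus is not shown to differ from the other regions. On chromosome X lay 10 of the 96 rises (10.4%), among them Nxf3 and Dach2, and 0 of the 22 falls, against 399 of the genes tested (3.46%).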

How the data were processed

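Whole-tissue RNA was amplified through a pair of cDNA synthesis cycles and hybridised to Affymetrix 3' arrays, per the labels' protocols. GCRMA is named in the submitters' processing notes, with no version. The deposited intensity values were linear, and each array's median lay between 0.995 and 0.999, so log2 values are relative to that median. GCRMA draws dim probe sets toward a common floor, so differences below the median are not measured folds.

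Of 45101 probe sets, the platform annotation gave 34945 a single gene symbol, 932 several and 9160 none, and 64 were controls. The probe set with the highest mean over the fit stood for each of 18193 genes. Testing in GLP hypothalamus required a log2 value above 0 on at least 4 of its 8 arrays. limma 3.58.1 in R 4.3.3 fitted 16 whole-tissue groups (59 arrays) together, with an intensity trend and Benjamini-Hochberg adjustment at 0.05. Differences between regions and between enzymes were contrasts of the same fit, where the value had to exceed 0 on at least 4 of the arrays compared. The design text calls the replicates biological, and p-values measure the spread between arrays. On simulated data for the hypothalamus comparison (11488 genes tested), 96.9% of log2 changes of 1 and 100% of log2 changes of 2 were recovered, with 5.45% of calls false. The simulated noise was independent between arrays, with 1 spread per gene over all groups, which is what the fit assumes. It held no array that stood apart by neighbouring tissue. These shares check the code and are not estimates for the real calls.

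The genes named are the 16 largest rises and 14 largest falls among called genes with non-overlapping groups, Ehmt1 and Ehmt2, up to 8 called members and 4 uncalled defining members of each of 34 lists, and the 8 smallest p of each difference test. Genes with only a clone name (6 rises and 3 falls) were counted and not named. Further genes are said to be chosen after their values were seen. The members and lists were chosen with earlier results of these data known. Alternatives changed the filter, the floor, the scaling, the probe set rule, the trend, the arrays fitted, array weights, a replicate block and each array in turn.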

Additional observations from a re-analysis of the deposited data

Results flagged for a closer look

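In 9 of 214 groups of 4 arrays examined, 1 array lay far from the other 3 by Dixon's criterion, which chance meets in about 1 in 20 groups. Pomc was at 1.17 in control 3, against 3.60 to 3.99 in the other controls. Trh was at 1.88 in control 4, against 2.18 to 2.24. Cda was at -1.13 in mutant 2, against -0.73 to -0.67 in the other mutants, and at 1.25 in control 2, against 0.11 to 0.23 in the other controls. Crlf2 was at 0.64 in mutant 3, against 1.31 to 1.39, and Gstm7 at 2.89 in mutant 3, against 3.27 to 3.34. Myh8 was at 0.07 in control 2, against -0.69 to -0.66, and Mettl24 at -1.56 in control 2, against -2.0 to -1.95. S1pr3, a sphingosine 1-phosphate receptor, was at 0.87 in control 3, against 1.27 to 1.34.

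The change on loss of GLP differed between the hypothalamus and the mean of the other 3 regions for 14 of the genes named. The difference on the log2 scale was 4.08 for Adh6b, 2.32 for Serpina9, 2.09 for Nxf3, 1.41 for Flt4, 0.88 for Adgre1, 0.87 for Clcn5 and 0.64 for Ngef. It was 0.83 for Wipf3, a regulator of the actin cytoskeleton, and 0.63 for Plcl1, a phospholipase C relative. It was -3.05 for Afp, -2.29 for Mettl24, -1.96 for Gpr50, -1.56 for Dach2 and -1.41 for Zranb3. For Clcn5, a second probe set moved by only 0.22 in hypothalamus. Between loss of GLP and loss of G9a in hypothalamus, Ehmt2 differed by 1.05.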

How the results depend on the processing

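The count of 118 called genes became 48 with a filter at 4 times the array median and 39 with only the 8 hypothalamus arrays in the fit, and lay between 80 and 196 when 1 array was left out, with 194 without mutant 1 and 196 without control 4. It was 174 with no filter and 152 with dim values raised to the median, both within 1.5 times. Of 78 named called genes, 28 kept their call in every alternative in which they were tested, and 46 lost it with only the compared arrays in the fit. Among the 30 leading genes 17 kept it wherever they were tested, the 16 rises and Slc5a5. Only 9 of the 30 were tested with the filter at 4 times the array median, and 20 with the control mean above the median. The 29 regional differences became 59 with no filter, 16 with a filter on the mean, 19 with the filter at 4 times the median, 89 with low values set to the median and 57 with log2(value + 1). With 1 array left out they lay between 23 and 78 (78 without mutant 1, 75 without control 3, 63 without control 4). The single difference between GLP and G9a became 5 with no filter, 27 with low values set to the median, 6 with log2(value + 1) and 7 with quantile normalization. It became 135 with array weights, and 0 with the mean of probe sets or only the compared groups. With 1 array left out it lay between 0 and 223, the highest without G9a mutant 2, and 20 passed without G9a mutant 1. Mutants and controls share replicate numbers, and the deviations of same-numbered arrays correlated at 0.252, -0.0195, 0.055 and -0.0381. Those of a mutant and a control of different number correlated at -0.449 to 0.439. These values show no closer likeness within a number, but they cannot decide whether the animals were paired. With the replicate number as a block, 156, 42 and 4 genes passed the tests of loss of GLP, of region and of enzyme. None of the 78 named called genes changed sign. Uncalled genes near 0 did when 1 array was left out: Avp -0.277 to 0.058, Ehmt2 -0.0606 to 0.076, Hdc -0.0542 to 0.0864, Oxt -0.112 to 0.325, Pmch -0.0954 to 0.0916, Sim1 -0.171 to 0.177, Sst -0.166 to 0.0927 and Ttr -2.36 to 0.465. Hdc changed by -0.023 with array weights. Without mutant 4 and control 3, Oxt changed by -0.024, Pmch by -0.051 and Sim1 by -0.070. Sim1 also changed by -0.0038 with log2(value + 1), by -0.0090 with quantile normalization and by -0.059 with the mean of probe sets. The causes were not tested. The alternatives without mutant 4 and control 3 together, and with the control mean above the array median (83 genes), were chosen after seeing the data.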

Other observations

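The genes in this section were chosen after their values were seen. They are single genes and form no fixed list. Some called genes of extracellular matrix and its receptors were higher in mutant hypothalamus, while Hapln1, a link protein of the hyaluronan matrix, was lower (-0.68, adjusted p = 0.00929). Lama2, the laminin chain of muscle and Schwann cell basement membranes, was at 1.51, 1.84, 2.09 and 2.14 in mutants and at 0.75, 0.81, 0.81 and 1.06 in controls, 2.06-fold higher (limma, adjusted p = 1.82e-05). Ddr2, a collagen receptor kinase, was at least 2.04-fold higher (adjusted p = 0.000268) and Frem1, a basement membrane protein of skin and kidney development, at least 1.64-fold higher (adjusted p = 0.000559). Tgfbi, a matrix protein induced by TGF beta, was at 1.36, 1.69, 1.55 and 1.84 in mutants and at 0.70, 1.00, 1.04 and 0.25 in controls, 1.82-fold higher (adjusted p = 0.00218). Col6a2, a partner chain of Col6a3, was at least 1.75-fold higher (adjusted p = 0.0404), a call lost without mutant 2 or 3 or control 1, 2 or 3 (adjusted p 0.0929 to 0.356). The calls of Tgfbi and Col6a2 were lost with only the 8 hypothalamus arrays in the fit. The listed meningeal and fibroblast genes held no call, as given above, and the part of such cells was not tested.

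Other single genes were called as well. Gpr83, an orphan receptor found in hypothalamus, was at 3.89, 4.55, 4.63 and 3.90 in mutants and at 3.17, 3.25, 3.37 and 3.81 in controls, 1.80-fold higher (adjusted p = 0.000334). Its lowest mutant was close to control 4. Kcna6, a voltage-gated potassium channel, was at 3.02, 2.84, 3.04 and 3.15 in mutants and at 2.32, 2.28, 2.45 and 2.53 in controls, 1.53-fold higher (adjusted p = 0.000148). Kcna4, another such channel, was at 3.50, 3.38, 3.37 and 3.72 in mutants and at 4.11, 4.17, 4.02 and 3.68 in controls, 1.42-fold lower (adjusted p = 0.0322), with mutant 4 above control 4. Its call was lost without mutant 2 or 3 or control 1, 2 or 3 (adjusted p 0.0561 to 0.186). Kit, the stem cell factor receptor, was 1.78-fold higher (adjusted p = 0.000559) and Hk2, a hexokinase of muscle and other insulin-responsive tissue, 2.34-fold higher (adjusted p = 1.82e-05). Anxa1, a calcium-dependent membrane-binding protein, was at 5.42, 5.81, 5.28 and 5.43 in mutants and at 3.60, 4.09, 4.68 and 4.78 in controls, 2.29-fold higher (adjusted p = 0.00117). The calls of Gpr83, Kcna6, Kcna4, Kit and Anxa1, but not that of Hk2, were lost with only the 8 hypothalamus arrays in the fit.

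Rmst, a long non-coding RNA of neural development, divided its controls. It was at 2.59, 2.86, 2.38 and 1.75 in mutants and at 2.97, 2.63, -2.80 and -3.22 in controls, so that controls 1 and 2 lay with or above the mutants and controls 3 and 4 far below. Its difference was 2.50 (adjusted p = 0.0322). The call was lost without mutant 1, 2 or 3 or control 3 or 4, where the difference was 1.46 to 2.51 (adjusted p 0.0572 to 0.211), and with only the 8 hypothalamus arrays in the fit.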
